A study of Neurospora crassa with 5 samples.

Results

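The genes described here are 5 pigment genes of the filamentous fungus Neurospora crassa: the polyketide synthase gene per-1 (NCU03584), the scytalone dehydratase gene NCU07823, the naphthol reductase genes NCU06905 and NCU09390, and the tyrosinase gene NCU00776. They were chosen by locus tag, for the function of the enzymes, from the 10591 gene rows of the deposited count table. Earlier results of these data were known when the choice was made. By the gene table used for names, NCU09390 carries the symbol tnr-1 and NCU00776 the symbol T, while NCU07823 and NCU06905 have no symbol beyond the locus tag. All 5 had enough counts to be tested, as did 8638 genes in all.

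Transcripts were measured by RNA sequencing in the strain FGSC#4564, a mutant of the mating-type gene mat 1-2-1 whose genotype is given as mat a[m1]s-3B cyh-1. Every culture was of this strain and was grown for 6 days on synthetic crossing medium, until protoperithecia, the immature female fruiting bodies, were abundant. The crossed group comprised 3 libraries, replicates 1, 2 and 3, collected 2 h after conidia (asexual spores) of the wild type FGSC#2489 were put on the cultures. The uncrossed group comprised 2 libraries, replicates 1 and 3, collected just before crossing. The tissue of 1 plate made 1 replicate, per the labels' protocols, and the recipient is a single mutant strain. Libraries with a wild-type recipient, or of conidia alone, were not analysed here. The crossed libraries can therefore contain RNA of the added conidia as well as of the recipient.

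Dihydroxynaphthalene (DHN) melanin is the dark pigment of the perithecial wall and the ascospores in Neurospora. A polyketide synthase first makes a naphthol precursor. Naphthol reductases and scytalone dehydratase then act in turn, reducing the precursor and removing water from it, until DHN is formed. Phenol oxidases such as laccases polymerise DHN into melanin. Mutants of per-1 form pale perithecia. Tyrosinase belongs to another route: this copper enzyme oxidises tyrosine and other phenols to quinones. In Neurospora it is known to be made in starved cultures, in cultures treated with inhibitors of protein synthesis and in sexually developing cultures.

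The total count ranged from 31063642 to 39592703 in the crossed libraries and from 25817200 to 39639683 in the uncrossed libraries. Levels are given as CPM, the counts per 1000000 of the library size after TMM scaling. The row of the mutated gene holds 6 values for 5 libraries, so it gives no check on the labels. The libraries of a group were not all alike. Over the tested genes, the root mean square difference in log2 CPM of uncrossed replicate 1 was 0.62 to uncrossed replicate 3 and 0.71 to 0.95 to the crossed libraries. Uncrossed replicate 3 was nearer to crossed replicate 1, at 0.48, and crossed replicates 2 and 3 were the closest, at 0.32. A count of 3 corresponded to 0.0841 to 0.110 CPM in crossed libraries and to 0.0717 to 0.102 CPM in uncrossed libraries. Ribosomal RNA genes took 19.3 to 34.0% of the counts in crossed libraries and 14.3 to 21.3% in uncrossed libraries. The 5 conidial marker genes (con-13, con-10, eas, con-8 and con-6) summed to 35718 to 64029 CPM in crossed libraries and to 15162 to 30530 CPM in uncrossed libraries, so the sums did not overlap. These sums were carried by eas and con-6, while the values of con-8 and con-10 overlapped between the groups. All 5 conidial markers had a positive fold change (median 1.18 on the log2 scale). By edgeR 0 of them passed the adjusted threshold, though 3 did so by DESeq2 (5.31% of all genes were called higher) and 3 by edgeR's unadjusted p (10.3% of all tested genes were higher at that level). Of 11 female development markers, the fruiting-body genes poi-2 and app had the highest levels. poi-2 had 4121 to 4473 CPM in crossed libraries and 2999 to 7649 CPM in uncrossed libraries. The regulator gene fmf-1 was near the floor, with 0 to 8 counts in crossed libraries and 7 and 10 counts in uncrossed libraries.

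Across the 5 pigment genes, 4 had lower values in every crossed library than in either uncrossed library: per-1, NCU07823, NCU06905 and the tyrosinase gene. The exception was the reductase gene tnr-1, whose groups overlapped. The fitted difference was about 3-fold in each of the first 3 genes and far larger in tyrosinase. By edgeR's quasi-likelihood test 0 of the 5 passed the adjusted threshold of 0.05, against 0.0463% of all tested genes. At an unadjusted p under 0.05 there were 4 of the 5, all lower in crossed cultures, against 11.0% of all tested genes lower at that level. DESeq2, run as an alternative, called the same 4 as lower at an adjusted p under 0.05, where it called 5.99% of the 8734 genes it gave an adjusted p. Every crossed library lay below every uncrossed library in 20.6% of all tested genes. A log2 fold change of -1 or lower was found in 4 of the 5, against 5.09% of all tested genes. Without uncrossed replicate 1 this count was 2 of the 5, NCU06905 and tyrosinase, against 3.83% of the genes tested in that fit. In bulk RNA a smaller share of cells of a type and less RNA per cell cannot be told apart, and neither can be told apart here from the addition of conidial RNA.

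**Figure D1:**
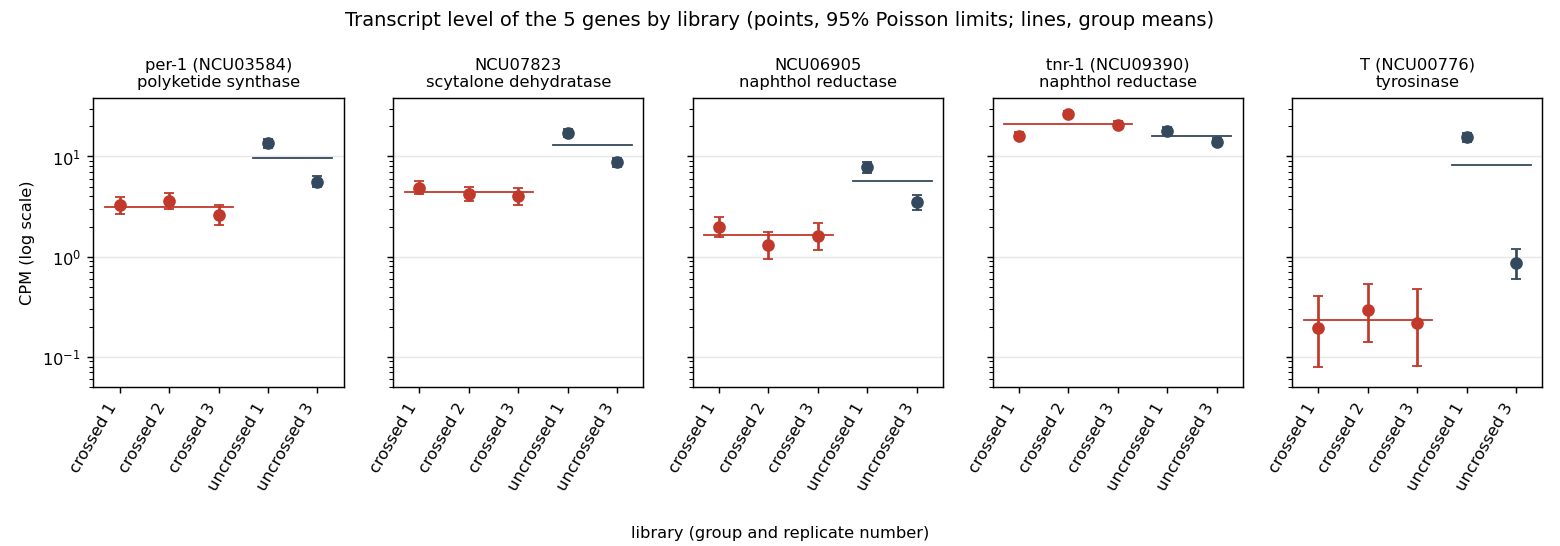
Transcript level (CPM, log scale) of the 5 genes in each library. Points are libraries with 95% Poisson limits, which cover counting error only, and lines are group means. In per-1, NCU07823, NCU06905 and T (NCU00776) the 3 crossed libraries sit below both uncrossed libraries, uncrossed replicate 1 is the highest, and in tnr-1 the groups overlap.

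The first step of the DHN pathway is made by the polyketide synthase of per-1. It had 3.25, 3.58 and 2.63 CPM in crossed replicates 1, 2 and 3, against 13.6 and 5.61 CPM in uncrossed replicates 1 and 3. The crossed libraries lay close together, whereas uncrossed replicate 1 was 2.42-fold above uncrossed replicate 3. The means were 3.15 ± 0.484 CPM in crossed cultures (SD, n = 3) and 9.60 ± 5.63 CPM in uncrossed cultures (SD, n = 2). The level was 3.03-fold lower in crossed cultures, or -1.60 on the log2 scale (SE 0.40, edgeR adjusted p = 0.161, DESeq2 adjusted p = 0.00776). The size rested on uncrossed replicate 1: without it the log2 fold change was -0.83, and the lone uncrossed library was then assumed to vary like the crossed libraries. Without uncrossed replicate 3 it was -2.10, again with a lone uncrossed library.

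Scytalone dehydratase, which removes water from the reduced intermediates, is encoded by NCU07823. The crossed libraries had 4.88, 4.25 and 4.02 CPM, against 17.2 and 8.74 CPM in uncrossed replicates 1 and 3. Even the lower uncrossed library was 1.79-fold above the highest crossed library. The means were 4.38 ± 0.447 CPM in crossed cultures (SD, n = 3) and 12.98 ± 6.00 CPM in uncrossed cultures (SD, n = 2). On the log2 scale the difference was -1.56 (SE 0.32, edgeR adjusted p = 0.145, DESeq2 adjusted p = 7.50e-04). It was -0.99 without uncrossed replicate 1 and -1.97 without uncrossed replicate 3, each with a lone uncrossed library.

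The naphthol reductase genes NCU06905 and tnr-1 (NCU09390), which share an enzyme class, had unlike values. NCU06905 had 1.99, 1.31 and 1.61 CPM in crossed replicates 1, 2 and 3, against 7.79 and 3.49 CPM in uncrossed replicates 1 and 3. These values rest on 71, 45 and 44 counts in the crossed libraries, against 229 and 146 counts in the uncrossed libraries. Its groups did not overlap, with a difference of -1.78 on the log2 scale (SE 0.41, edgeR adjusted p = 0.156, DESeq2 adjusted p = 0.00503). Without uncrossed replicate 1 the log2 fold change of NCU06905 was -1.09. Without uncrossed replicate 3 it was -2.25, and each of these fits had a lone uncrossed library.

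The reductase gene tnr-1, named for tetrahydroxynaphthalene reductase, had 16.1, 26.6 and 20.8 CPM in crossed replicates 1, 2 and 3, against 18.1 and 14.04 CPM in uncrossed replicates 1 and 3. Crossed replicate 1 fell between the uncrossed libraries, and crossed replicates 2 and 3 lay above both. The means were 21.2 ± 5.26 CPM in crossed cultures (SD, n = 3) and 16.1 ± 2.90 CPM in uncrossed cultures (SD, n = 2). The difference of 0.40 on the log2 scale (SE 0.25) was within the replicate spread (edgeR adjusted p = 0.383, DESeq2 adjusted p = 0.410). It ranged from 0.15 with plain library sizes to 0.59 without uncrossed replicate 1, on the log2 scale, and did not change sign in any of 11 alternative fits.

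Within a library the ratio of the reductase genes does not depend on how libraries are scaled. The count of NCU06905 divided by that of tnr-1 was 0.124, 0.0492 and 0.0773 in crossed replicates 1, 2 and 3, against 0.430 and 0.248 in uncrossed replicates 1 and 3. Crossed libraries thus had the lower ratios, with no overlap between the groups. By contrast, the count of NCU07823 divided by that of NCU06905 was 2.45, 3.24 and 2.50 in crossed libraries, against 2.21 and 2.51 in uncrossed libraries, and the groups overlapped. The count of per-1 divided by that of NCU07823 also overlapped, at 0.667, 0.842 and 0.655 in crossed libraries, against 0.789 and 0.642 in uncrossed libraries. No test was applied to these ratios.

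The tyrosinase gene had the largest difference of the 5 and the largest spread within a group. It had 7, 10 and 6 counts in crossed replicates 1, 2 and 3, against 455 and 36 counts in uncrossed replicates 1 and 3. In CPM this was 0.196, 0.291 and 0.219 in the crossed libraries, against 15.5 and 0.860 in the uncrossed libraries. The 95% Poisson limits of uncrossed replicate 3 were 0.602 and 1.19 CPM, above the upper limit of every crossed library, the highest of which was 0.535 CPM. Such limits cover counting error only, not the spread between cultures. Uncrossed replicate 1 was 18.0-fold above uncrossed replicate 3, and only 21 of the 8638 tested genes, tyrosinase among them, had so large a ratio between these libraries. The ratio was 2.42 in per-1, 1.97 in NCU07823, 2.24 in NCU06905 and 1.29 in tnr-1. These smaller ratios were reached or exceeded by 237, 374, 269 and 1323 tested genes, in that order.

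Tyrosinase differed by -5.08 on the log2 scale (SE 1.22, edgeR adjusted p = 0.158, DESeq2 adjusted p = 6.77e-05). It was the 11th lowest of the 8638 fold changes. Without uncrossed replicate 1 it was -1.85, and without uncrossed replicate 3 it was -6.01, each with a lone uncrossed library. Set against the mean of the crossed libraries, the CPM of uncrossed replicate 1 was 65.8-fold higher and that of uncrossed replicate 3 was 3.65-fold higher. By the gene table the tyrosinase gene lies with 100% of its span inside NCU00777. No source used here says whether counting was by strand, so the division of reads between these genes is uncertain. NCU00777 itself had 18.5, 21.0 and 22.8 CPM in crossed libraries, against 27.0 and 20.5 CPM in uncrossed libraries, and its groups overlapped. None of the other 4 pigment genes overlaps a gene of the table.

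**Figure D2:**
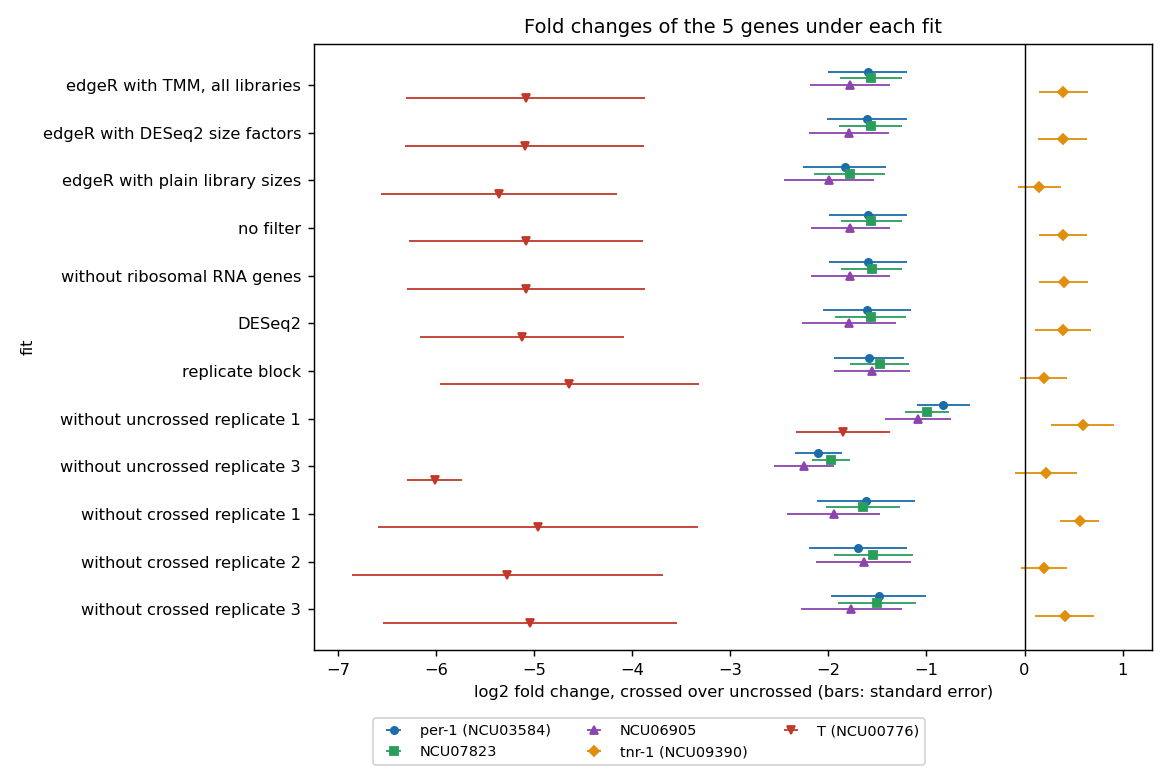
Log2 fold change of crossed over uncrossed cultures (points, with standard errors) of the 5 genes in the fit to all libraries with TMM and in 11 alternative fits. The values of per-1, NCU07823, NCU06905 and T stay below 0 in every fit and are nearest to 0 without uncrossed replicate 1 (-0.83, -0.99, -1.09 and -1.85), while tnr-1 stays above 0. In all but tnr-1 the groups do not overlap, so the sign could hardly change.

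Levels were also set side by side within replicate numbers. Crossed replicate 1 had 0.240 times the per-1 level of uncrossed replicate 1, and crossed replicate 3 had 0.468 times that of uncrossed replicate 3. The corresponding ratios of crossed to uncrossed level were 0.283 for number 1 and 0.459 for number 3 in NCU07823. They were 0.255 and 0.461 in NCU06905, and 0.0127 and 0.255 in tyrosinase. In these 4 genes every crossed library lay below both uncrossed libraries, so the ratio had to be below 1 for both numbers. In tnr-1 it was 0.887 for number 1 and 1.48 for number 3, on either side of 1. What the numbers stand for is not given in the labels.

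The profiles of the first 3 genes over the 5 libraries were close to each other. Likeness was measured as the root mean square difference of log2 CPM after each gene's mean had been removed, so a smaller value means more alike. It was 0.16 between per-1 and NCU07823, 0.17 between NCU07823 and NCU06905, and 0.28 between per-1 and NCU06905. Of 6797 genes with a mean of at least 10 CPM, 1 was closer to per-1 than NCU07823 was, and 22 were closer to it than NCU06905 was. The 3 genes themselves had means below 10 CPM, so tested genes at their own level were not counted in these ranks. For NCU07823, 9 genes were closer than per-1 and 13 closer than NCU06905. For NCU06905, 5 genes were closer than NCU07823 and 43 closer than per-1. The distance of these 3 genes from tnr-1 was 0.97 to 1.11, and from tyrosinase 1.40 to 1.48. Tyrosinase and tnr-1 differed by 2.32. The 5 libraries are shared by all genes, and many genes ordered the libraries alike, so this describes the profiles only.

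**Figure D3:**
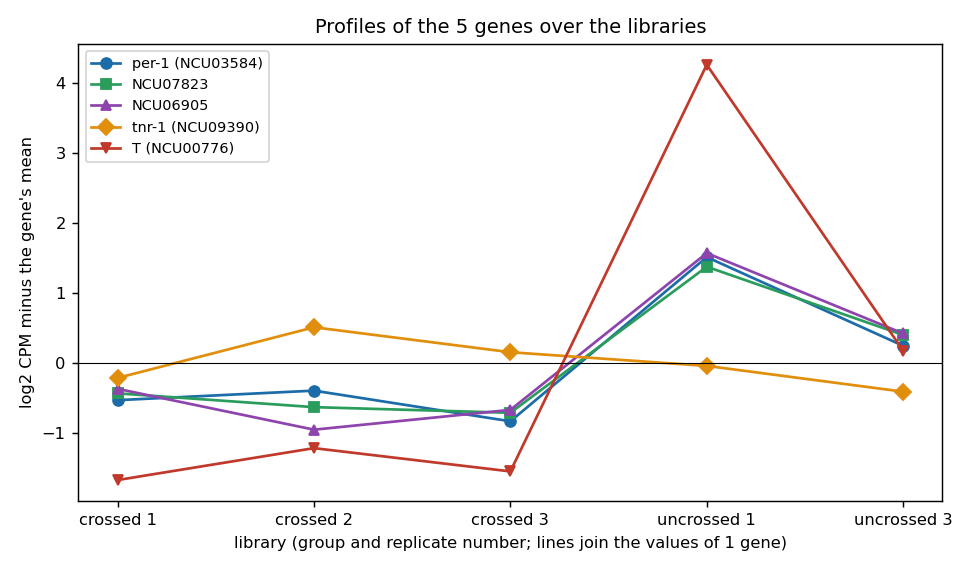
Log2 CPM of the 5 genes minus each gene's mean, by library, with lines joining the values of a gene. The lines of per-1, NCU07823 and NCU06905 run close together (distances of 0.16 to 0.28), tyrosinase stands out in uncrossed replicate 1, and tnr-1 runs apart from the other 4.

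Among the genes of at least 10 CPM, the profile most like that of per-1 was NCU07080, at a distance of 0.15, followed by NCU02084 at 0.18. For NCU07823 the nearest was cys-14 (NCU04433), which encodes a sulfate permease, at 0.09, followed by NCU09698 at 0.10. For NCU06905 it was NCU00602 at 0.11, followed by arg-12 (NCU01667), the ornithine carbamoyltransferase gene, at 0.15. The nearest to tnr-1 were NCU05982 and NCU02530, both at 0.07, and 325 genes lay within 0.2 of it. Within the same distance there were 3 genes for per-1, 23 for NCU07823, 10 for NCU06905 and 0 for tyrosinase. These last genes had means below 10 CPM themselves, so tested genes at their level were not counted. The gene nearest to tyrosinase, NCU02926, was at 0.44. It had 2.10, 2.12 and 2.12 CPM in crossed libraries, against 73.9 and 3.39 CPM in uncrossed replicates 1 and 3, so it too was high in 1 library.

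Levels of different genes were compared per kb of gene span, on which NCU07823 and tnr-1 were the most abundant of the 5. In crossed cultures tnr-1 came first, with 9.77 ± 2.43 CPM per kb (SD, n = 3), followed by NCU07823 with 4.64 ± 0.473 and NCU06905 with 1.39 ± 0.290. The levels of per-1 and tyrosinase were lower, at 0.421 ± 0.0645 and 0.107 ± 0.0224 CPM per kb. The ranges over the 3 crossed libraries did not overlap between any neighbours in this order. In uncrossed cultures NCU07823 came first, with 13.8 ± 6.35 CPM per kb (SD, n = 2), then tnr-1 with 7.43 ± 1.34 and NCU06905 with 4.78 ± 2.58. Tyrosinase had a mean of 3.70 ± 4.68 and per-1 of 1.28 ± 0.752. The place of tyrosinase differed between the uncrossed libraries: in replicate 1 it was above NCU06905 (7.01 against 6.61 CPM per kb), and in replicate 3 it was below per-1 (0.389 against 0.749 CPM per kb). The ranges of tnr-1 and NCU06905 overlapped there, as did those of NCU06905 and tyrosinase and those of tyrosinase and per-1. The gene span, 7496 bp for per-1 and 944 bp for NCU07823, includes introns, and the build behind the counts is not stated.

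Of the summed CPM per kb of the 5 genes, tnr-1 made up 50.2, 66.4 and 61.3% in crossed replicates 1, 2 and 3, against 19.9 and 32.7% in uncrossed replicates 1 and 3. The share of NCU07823 was 34.9, 24.3 and 27.2% in crossed libraries, against 43.4 and 46.7% in uncrossed libraries. Tyrosinase made up 0.600, 0.712 and 0.633% in crossed libraries, against 16.7 and 1.96% in uncrossed libraries. The share of per-1 was 2.93, 2.58 and 2.24% in crossed libraries, against 4.31 and 3.77% in uncrossed libraries. That of NCU06905 was 11.4, 6.00 and 8.70%, against 15.7 and 14.9%. In each of the 5 genes the shares of the groups did not overlap. Shares add up to the whole, so each depends on the other genes, and in CPM the groups of tnr-1 overlapped. Ranked per kb of span among the tested genes, all 5 lay below the middle. In crossed cultures 0.452% (tyrosinase) to 37.7% (tnr-1) of the tested genes had a lower mean CPM per kb, against 8.70% (per-1) to 48.8% (NCU07823) in uncrossed cultures.

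**Figure D4:**
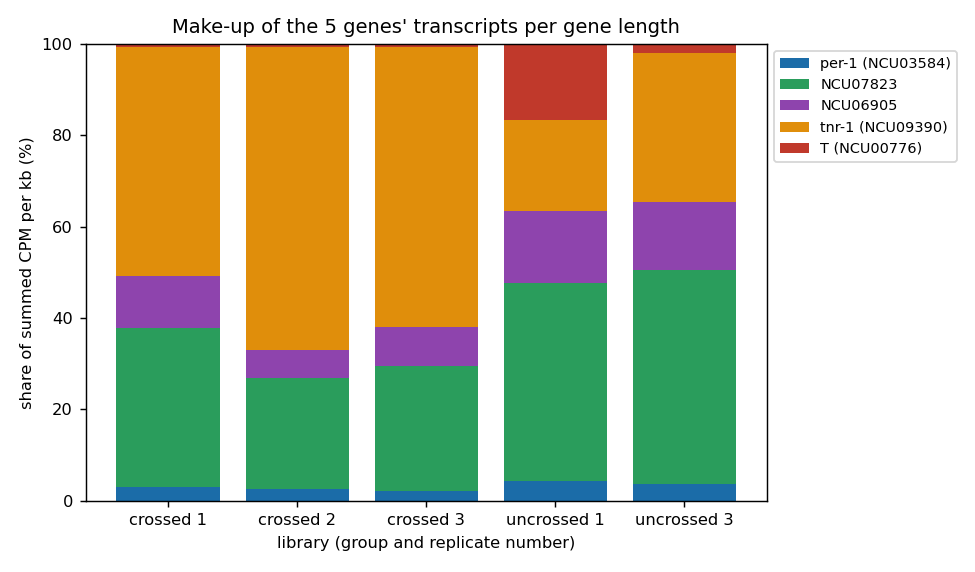
Share of each gene in the summed CPM per kb of gene span of the 5 genes, by library; bars add up to the whole. The share of tnr-1 is 50.2 to 66.4% in the crossed libraries, against 19.9 and 32.7% in the uncrossed libraries, and tyrosinase is visible mainly in uncrossed replicate 1.

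Of further melanin and phenol oxidase genes looked up by symbol (pkh-1, per-2, ty-1, ty-2 and laccase symbols), 2 were matched in the gene table, ty-1 and lacc, and the symbols pkh-1, per-2 and ty-2 were not matched. The laccase gene lacc (NCU04528) encodes a phenol oxidase. It had 0.925, 1.14 and 1.61 CPM in crossed replicates 1, 2 and 3, against 13.04 and 2.36 CPM in uncrossed replicates 1 and 3. Its values also did not overlap and were highest in uncrossed replicate 1, at -2.65 on the log2 scale (SE 0.72, edgeR adjusted p = 0.164, DESeq2 adjusted p = 0.00610). The gene ty-1 (NCU00455), named for mutants that lack tyrosinase, had 99.2, 89.6 and 90.5 CPM in crossed libraries, against 82.4 and 95.01 CPM in uncrossed libraries. Its groups overlapped (log2 difference 0.07, SE 0.11, edgeR adjusted p = 0.711).

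The 6 other polyketide synthase genes, those with a pks symbol, had values in both directions, with 4 fold changes above 0 and 2 below. By edgeR 0 of the 6 passed the adjusted threshold, while 1 was lower and 1 higher at an unadjusted p under 0.05. Of all tested genes 11.0% were lower and 10.3% higher at that level. DESeq2 called 1 lower, pks-6, and 1 higher, pks-3. Of all genes it gave an adjusted p, it called 5.99% lower and 5.31% higher. The median log2 fold change of the 6 was 0.29, against 8.0e-04 over all tested genes and -1.60 over the 5 pigment genes. The gene pks-6 (NCU02918) was lowest, with 95, 5 and 3 counts in crossed replicates 1, 2 and 3, against 3629 and 194 counts in uncrossed replicates 1 and 3. This was -5.98 on the log2 scale (SE 1.72, edgeR adjusted p = 0.171). The largest positive value was that of pks-3 (NCU04865), which had 48.4, 88.8 and 85.2 CPM in crossed libraries, against 29.2 and 37.2 CPM in uncrossed libraries. This was 1.16 on the log2 scale (SE 0.30, edgeR adjusted p = 0.161). The log2 fold changes of pks-1, pks-2, pks-4 and pks-5 were 0.25, 1.08, 0.33 and -1.52, and pks-2 had at most 13 counts in any library.

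The carotenoid genes, which serve the orange pigment of Neurospora, had mixed values. Of 5, 3 had a positive and 2 a negative fold change (median 0.25 on the log2 scale). By edgeR 0 passed the adjusted threshold, and 1 in each direction had an unadjusted p under 0.05. Of all tested genes 10.3% were higher and 11.0% lower at that level. By DESeq2 al-3 was called higher and al-2 lower, where 5.31% of all genes were called higher and 5.99% lower. The extremes were al-3 (NCU01427), the geranylgeranyl diphosphate synthase gene, at 1.03 (SE 0.16, edgeR adjusted p = 0.114, DESeq2 adjusted p = 1.03e-07), and al-2 (NCU00585), which encodes phytoene synthase and lycopene cyclase, at -0.79 (SE 0.19, edgeR adjusted p = 0.159, DESeq2 adjusted p = 0.00273).

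The 5 genes were not neighbours of each other in gene order. Only NCU06905 and tnr-1 share a chromosome, with 148 genes between them. The 2 genes on each side of each of the 5 made 20 neighbouring genes, of which 12 were tested. By edgeR 0 of the 12 passed the adjusted threshold, against 0.0463% of all tested genes. At an unadjusted p under 0.05, 2 were lower, against 11.0% of all tested genes. The median log2 fold change of the 12 was -0.08. Every crossed library lay below every uncrossed library in 4 of the 12, against 20.6% of all tested genes. The lowest value, -1.22 (SE 0.51, edgeR adjusted p = 0.247), was that of NCU09393 beside tnr-1, a gene with a mean of 0.363 CPM. The highest was 0.18 (SE 0.43, edgeR adjusted p = 0.810), in NCU07825 beside NCU07823.

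**Figure D5:**
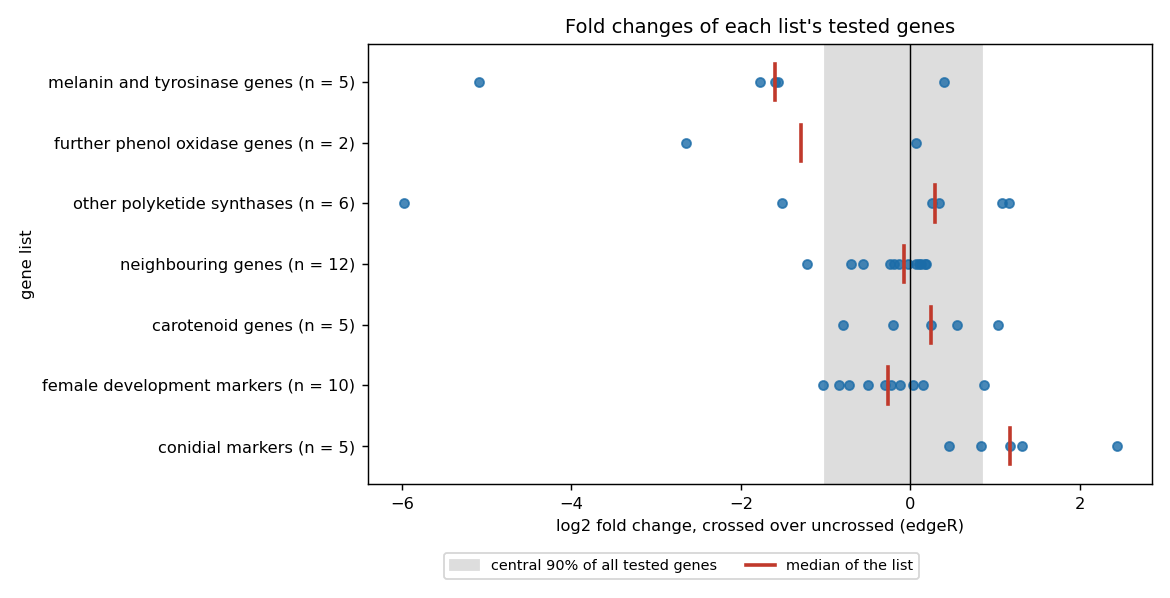
Log2 fold change of crossed over uncrossed cultures for the tested genes of each list (points), the list's median (red) and the central 90% of all tested genes (grey, from -1.01 to 0.84). The median is -1.60 for the 5 pigment genes, -0.08 for their neighbours and 1.18 for the conidial markers.

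Markers of female development were set beside these values, because the pigment genes are known from fruiting bodies. Of the 11 markers 10 were tested. By edgeR 0 passed the adjusted threshold, and 1 was higher and 2 lower at an unadjusted p under 0.05. Of all tested genes 10.3% were higher and 11.0% lower at that level. DESeq2 called 1 marker lower, where it called 5.99% of all genes it gave an adjusted p. The median log2 fold change of the markers was -0.27, with 3 above 0 and 7 below. The gene called lower by DESeq2 was the pheromone precursor gene mfa-1 (NCU16992, also known as poi-1), with 29.7, 30.7 and 28.1 CPM in crossed libraries, against 61.02 and 59.7 CPM in uncrossed libraries. Its groups did not overlap, at -1.03 on the log2 scale (SE 0.09, edgeR adjusted p = 0.0618, DESeq2 adjusted p = 3.35e-16). The largest positive value was that of asd-3 (NCU05597), whose groups did not overlap either. It had 7.57, 12.8 and 13.7 CPM in crossed libraries, against 5.99 and 6.40 CPM in uncrossed libraries. This was 0.87 on the log2 scale (SE 0.30, edgeR adjusted p = 0.196, DESeq2 adjusted p = 0.0664). The summed level of the list, carried by poi-2 and app, was 7353 to 9738 CPM in crossed libraries and 6719 to 15838 CPM in uncrossed libraries, so the sums overlapped. The summed level of the conidial markers, carried by eas and con-6, was higher in every crossed library, while con-8 and con-10 overlapped between the groups. The part of this sum in the lower values of the 4 pigment genes was not tested. Uncrossed replicate 1, which had the highest values of the 4 pigment genes, had the lowest conidial sum (15162 CPM) and the lowest ribosomal RNA share (14.3%) of the 5 libraries. With ribosomal RNA genes left out, the log2 fold change was -1.60 for per-1, -1.56 for NCU07823, -1.78 for NCU06905 and -5.08 for tyrosinase. TMM scaling leans on the bulk of the genes in both fits, so leaving these rows out could hardly move the fold changes. This fit therefore does not address differences in RNA make-up between the libraries.

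The authors' deposited table of relative expression sets the lower stage of a gene at 1 and gives the other as a ratio to it. In the authors' deposited table per-1 stood at 1 in crossed and 3.39 in uncrossed cultures, NCU07823 at 1 and 3.16, and NCU06905 at 1 and 3.79. Tyrosinase stood at 1 in crossed and 38.3 in uncrossed cultures in the authors' deposited table, and tnr-1 at 1.13 in crossed and 1 in uncrossed cultures. In 4 of the 5 genes the limits of the stages lay apart there, with the higher value in uncrossed cultures. The same held for 59.6% of the 9205 rows with an estimate in both stages in the authors' deposited table, so it was common. For tnr-1 these limits were 1.09 and 1.17 in crossed and 0.956 and 1.04 in uncrossed cultures in the authors' deposited table, although its library values overlapped between the groups. Each stage has a single estimate there, and no source used here says if the limits cover replicate spread. From the counts, the pooled ratio of uncrossed to crossed level was 29.2 for tyrosinase, a value to which uncrossed replicate 1 contributed 455 of the 491 uncrossed counts.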

How the data were processed

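The deposited count table holds whole, unscaled counts for each gene in 5 libraries. Per the labels' protocols, libraries were stranded and sequenced from both ends (101 bp). Per the submitters' processing notes, the tools were CASAVA 1.8.2, fastp, HISAT2 2.1.0 and StringTie 1.3.3b. The build, the annotation and the strand setting of the counting are not stated in these sources. A further table by the authors holds, per the file headers, a ratio per stage and the distance to each limit. A row with 6 values for 5 columns (mat_a1) was left out. Names, spans and gene order came from the RefSeq gene table of NC12 (10590 of 10591 rows matched by locus tag), as did overlaps of genes; its coordinates are not printed, since the counts may rest on another build. Sequences are not shown.

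Counts were tested with edgeR 4.0.16 (R 4.3.3): filterByExpr, TMM, robust quasi-likelihood test on the group alone, two-sided, Benjamini-Hochberg adjustment over 8638 genes, threshold 0.05. Standard errors came from the F statistic. Log2 CPM for profiles used a prior count of 2. Floors of 3 counts and 95% exact Poisson limits cover counting error only, since reads are not independent molecules. Alternatives were DESeq2 1.42.0, DESeq2 size factors, plain library sizes, no filter, no ribosomal RNA genes, a replicate block, and leaving out 1 library at a time. The fit was tested on simulated data, and no result given here rests on that run. The genes and lists were chosen with earlier results of these data known. Named genes were the 5 pigment genes, the phenol oxidase and polyketide synthase lists, list extremes, the 2 genes on each side, and the 2 nearest profiles.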

Additional observations from a re-analysis of the deposited data

How the results depend on the processing

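Over all genes, 4 passed the threshold under TMM, under DESeq2 size factors, with no filter and with no ribosomal RNA genes, and 3 under plain library sizes. The count was 987 with DESeq2 (464 higher, 523 lower) and 266 with the replicate block (130 higher, 136 lower). It was 762 lacking crossed replicate 1. Lacking crossed replicate 2 or crossed replicate 3 it was 0, where 877 and 871 genes had an unadjusted p under 0.05 by edgeR. The cause was not tested. DESeq2 moved 4 genes past the threshold, with log2 fold changes of -1.61 for per-1, -1.57 for NCU07823, -1.79 for NCU06905 and -5.12 for tyrosinase. With a library left out the log2 fold changes ran from -2.10 to -0.83 for per-1, from -1.97 to -0.99 for NCU07823, from -2.25 to -1.09 for NCU06905, from 0.20 to 0.59 for tnr-1 and from -6.01 to -1.85 for tyrosinase. A fit lacking an uncrossed replicate leaves a lone uncrossed library, so only its fold changes are given. Plain library sizes shifted the median log2 fold change of all genes to -0.21. Over the 11 alternatives 0 of the 5 genes changed sign. The alternatives reuse the same libraries. In per-1, NCU07823, NCU06905 and tyrosinase the groups did not overlap, so their sign could hardly change.

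With the replicate block the log2 fold changes were -1.59, -1.48, -1.55, 0.20 and -4.64 for per-1, NCU07823, NCU06905, tnr-1 and tyrosinase, with adjusted p of 0.0767, 0.0590, 0.0978, 0.745 and 0.240 by edgeR, and no call on them changed. Deviations of same-numbered libraries correlated across genes at 0.257 (number 1) and 0.224 (number 3). The 2 shared numbers are too few to settle a pairing, and number 2 occurs in the crossed group alone.

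Depth limits tyrosinase most, with at most 10 counts in a crossed library.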
